A study of Mus musculus with 9 samples.

Results

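The genes described here are 8 that act in blood coagulation at the vessel wall: Vwf, F8, F3, Tfpi, Thbd, Procr, Pros1 and Gas6. They were taken by symbol from a table of 24421 genes, and all 8 were found. Tumors had been raised in the flank of male athymic Nu/Nu nude mice from bEnd.3, an endothelial line of the mouse that carries the polyoma virus middle T antigen. The comparison was of 5 tumors treated with R-propranolol, given by intraperitoneal injection, with 4 tumors treated with the vehicle, ethanol in buffered saline. R-propranolol is the stereoisomer of propranolol without significant activity at the beta-adrenergic receptor. All tumors come from 1 cell line, and an allograft of this kind can also hold vessels and stroma of the host. Sources used here do not give the age of the mice.

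Endothelial cells hold blood fluid by carrying inhibitors of coagulation on their surface, and they also store or make factors that start it. Tissue factor (F3) binds factor VII to begin the cascade, and tissue factor pathway inhibitor (Tfpi) blocks that step. Thrombomodulin (Thbd) turns thrombin into an activator of protein C, the endothelial protein C receptor (Procr) presents protein C to it, and protein S (Pros1) is the cofactor of the activated enzyme. Von Willebrand factor (Vwf) tethers platelets and carries factor VIII (F8) in plasma, while Gas6, a relative of protein S that depends on vitamin K, is a ligand of the receptors Tyro3, Axl and Mertk.

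Counts over genes ranged from 21084749 to 27852630 in R-propranolol-treated tumors and from 20599904 to 24949010 in vehicle-treated tumors. Below, levels are CPM, counts per 1000000 counts after scaling by TMM, and levels between genes are CPM per kilobase of merged exons. R-propranolol replicate 5 stood apart. Its TMM factor was 0.753, against 0.966 to 1.10 in the other 8 tumors, so its CPM are higher than plain shares of its counts. Over all genes, its correlation with each remaining tumor was 0.678 to 0.791, where pairs of those 8 gave 0.897 to 0.988, and 11 skeletal muscle genes summed to 186916 CPM in it, against at most 15.5 in the other treated tumors and 429.7 in vehicle-treated tumors. The difference between groups is therefore given for each of the 8 genes with and without this tumor. Of 15 endothelial markers all were detected, from Flt1, Tie1, Cdh5 and Eng at 60.0 CPM or more in every tumor to Emcn, Erg and Cldn5 at 2.42 to 6.87 CPM in all tumors but R-propranolol replicates 2 and 5. In bulk tumors, fewer cells of a type and less RNA per cell cannot be told apart.

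RefSeq windows around the transcription start, which run from 250 bases before it to 50 after it on GRCm38.p6, were matched for 6 of the 8 genes. The windows of F3 and Procr are shown because they were the ones among these 6 genes that hold the AP-1 motif TGAGTCA or its reverse complement TGACTCA. That motif is in 5.20% of all 32851 windows. The F3 window also holds the EGR core GTGGGCG on each strand, a motif of 7.97% of all windows. Capitals mark these letters, which do not overlap each other, and a match is a description of the sequence only. In F3 the AP-1 letters begin 135 bases before the start and the EGR letters 91 and 57 bases before it, and in Procr the AP-1 letters begin 154 bases before the start.
F3 promoter, chr3:121723287-121723586, plus strand: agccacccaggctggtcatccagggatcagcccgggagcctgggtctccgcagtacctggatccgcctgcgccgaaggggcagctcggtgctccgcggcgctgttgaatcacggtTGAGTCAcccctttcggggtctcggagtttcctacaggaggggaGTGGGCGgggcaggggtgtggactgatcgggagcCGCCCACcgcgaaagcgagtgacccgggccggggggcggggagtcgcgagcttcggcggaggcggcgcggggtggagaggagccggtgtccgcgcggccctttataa
Procr promoter, chr2:155750967-155751266, plus strand: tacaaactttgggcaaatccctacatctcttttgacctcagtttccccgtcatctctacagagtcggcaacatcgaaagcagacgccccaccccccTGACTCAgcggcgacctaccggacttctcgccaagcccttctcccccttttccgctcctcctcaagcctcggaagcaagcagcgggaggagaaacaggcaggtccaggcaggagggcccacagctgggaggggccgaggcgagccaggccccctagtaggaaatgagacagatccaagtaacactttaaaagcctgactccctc

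Thbd was highest, with 109 ± 36.6 CPM per kilobase in R-propranolol-treated tumors (SD, n = 5) and 93.6 ± 33.6 in vehicle-treated tumors (SD, n = 4). It ranked first in 8 of 9 tumors and was passed by Gas6 in R-propranolol replicate 5. Pros1 followed with 38.5 ± 5.96 and 38.8 ± 6.45 CPM per kilobase in the R-propranolol and vehicle groups, then F3 with 20.6 ± 8.12 and 16.9 ± 3.08. Gas6 had no fixed place and lay between 8.88 and 246 CPM per kilobase over the 9 tumors, ranking from 1 to 4 among the 8 genes.
Below these came Procr at 8.42 ± 1.78 and 8.55 ± 0.975 CPM per kilobase in the R-propranolol and vehicle groups, Tfpi at 4.80 ± 1.24 and 4.41 ± 0.530, Vwf at 1.71 ± 2.51 and 0.586 ± 0.251, and F8 at 0.148 ± 0.0253 and 0.147 ± 0.0175. Vwf, a usual marker of endothelium, was thus near the bottom, seventh of 8 in every tumor except R-propranolol replicate 5, where it was sixth. F8 was eighth in every tumor. Neighbours in this order overlapped in their ranges over the 9 tumors, except Pros1 with Thbd and with F3, and F8 with Vwf. The overlap of Vwf with Tfpi and Procr came from R-propranolol replicate 5 alone, at 6.18 CPM per kilobase, with at most 0.999 in the other 8 tumors. That of F3 with Procr, which reached 10.6, also came from this tumor alone. There F3 had 8.34 CPM per kilobase, with 12.7 to 30.0 in the other 8 tumors. With the longest transcript in place of merged exons, Vwf had 1.07 CPM per kilobase in vehicle-treated tumors, still below Tfpi.

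**Figure D1:**
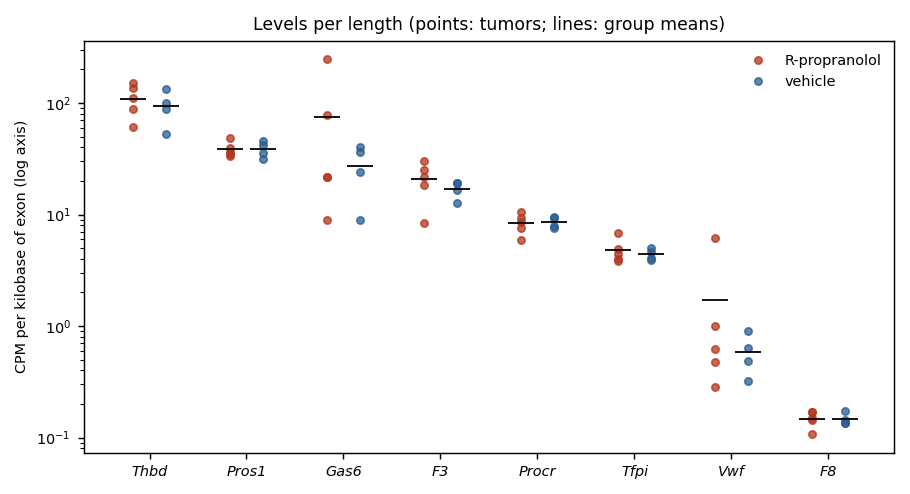
Level of each gene (CPM per kilobase of merged exons, log axis) in 5 R-propranolol-treated and 4 vehicle-treated tumors as points, with lines for group means, ordered by the vehicle mean. Thbd lies between 52.3 and 152 and F8 between 0.108 and 0.172, while the R-propranolol points of Gas6 and Vwf each hold 1 tumor far above the rest.

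To see whether R-propranolol altered these genes, expression was tested between groups by the quasi-likelihood test of edgeR over the 13901 genes with enough counts, which include all 8. None of the 8 passed an adjusted p of 0.05, where the background is 0% of all genes, and none had an unadjusted p under 0.05, a share of 2.30% among all genes (2.01% when only higher genes are counted). The log2 fold change was above 0 for 6 of the 8, where 54.3% of all genes were above 0, and the median of the 8 was 0.17 beside 0.03 for all genes tested. The groups overlapped for all 8, while 1.26% of genes tested had groups that did not overlap. DESeq2 and limma-voom also called 0 of all genes at an adjusted p under 0.05, with 831 of 18416 and 139 of 13901 genes at an unadjusted p under 0.05, beside 320 of 13901 with edgeR.
Without R-propranolol replicate 5, the adjusted p of each of the 8 was 0.9995 in edgeR and 1 of them, F3, had an unadjusted p under 0.05, where the background was 3.78% of 13743 genes (2.65% when only higher genes are counted). The log2 fold change was then above 0 for 5 of the 8 (53.7% of all genes).

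Vwf spans 125546774 to 125686679 on chromosome 6 (GRCm38, as for all places given). Its level was 9.99, 16.0, 7.65, 4.59 and 99.3 CPM in R-propranolol replicates 1 to 5, against 10.1, 7.78, 14.6 and 5.13 CPM in vehicle replicates 1 to 4. Replicate 5 was 6.19-fold above the highest of the other 8 tumors, which overlapped between the groups. Of all 13901 genes tested, 1242 (8.93%) were at least 3-fold higher in this tumor than in any other. Gas6, at 3.16-fold, is also among them. Vwf gave a log2 fold change of R-propranolol over vehicle of 1.54 with all tumors (standard error, SE, 0.92; edgeR, adjusted p = 0.876) and 0.02 (SE 0.42) without that tumor. An exact permutation test of mean log2 CPM gave p = 0.619 (two-sided, smallest possible 0.00794).
In the tumor with 99.3 CPM of Vwf, the summed level of 11 skeletal muscle markers, given above, was also highest, as were those of 8 adipocyte markers (3877 CPM, against 76.6 to 157 in the other treated and 118 to 299.7 in vehicle-treated tumors) and 8 mural markers (8981 CPM, against 142 to 479 and 130 to 225). Of the mural sum, 8693 CPM was desmin (Des), also a muscle protein. The part of these tissues in the Vwf value was not tested. Endothelial markers summed to 1044 CPM in this tumor, 1015 to 1561 CPM in the other treated and 1033 to 1249.8 CPM in vehicle-treated tumors. Flt1 weighed most in these sums except in this tumor, where it had 111 CPM and other markers had more. The median log2 CPM of the endothelial markers was 5.63 in this tumor and 5.91 in R-propranolol replicate 2. It was 3.73 to 4.39 in the other treated and 3.62 to 4.58 in vehicle-treated tumors. Of the 15 markers, 13 had a log2 fold change above 0 (median 1.08, and 0.64 without replicate 5). Across the 9 tumors, Vwf had an r of 0.761 with the median log2 CPM of these markers (exact permutation p = 0.0146, adjusted over 36 relations 0.146). It was 0.712 without replicate 5 (exact permutation p = 0.0336, adjusted 0.216). The part of endothelial content in the Vwf value was not tested. Vwf is also made by megakaryocytes, and the 10 platelet markers, none at 0 in all tumors, summed to 136 CPM here, within 58.8 to 335 CPM in the other treated and 68.1 to 164 CPM in vehicle-treated tumors. Pf4 alone was 117 CPM of the sum in this tumor. The part of megakaryocytes or platelets in the Vwf value was not tested.
The 8 tumors without replicate 5 still had a 3.50-fold span of Vwf, with R-propranolol replicate 2 and vehicle replicate 3 at the top and the replicates numbered 4 of both groups at the bottom. The genes most like Vwf in log2 CPM over the 9 tumors were Ramp1, a receptor accessory protein (r = 0.990), and Cd300lg (r = 0.989), which were chosen as the highest of all genes tested.

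F8, on chromosome X from 75172715 to 75382615, rested on 25 to 48 counts per tumor. It had 48, 37, 40, 26 and 25 counts in R-propranolol replicates 1 to 5, against 31, 35, 43 and 30 counts in vehicle replicates 1 to 4. Scaled, the means were 1.47 ± 0.251 CPM in R-propranolol-treated tumors (SD, n = 5) and 1.45 ± 0.173 CPM in vehicle-treated tumors (SD, n = 4). Its log2 fold change was 0.01 (SE 0.23; edgeR, adjusted p = 0.986; normal-approximation interval -0.43 to 0.46) and -0.04 without R-propranolol replicate 5 (SE 0.23), with a sign that turned in 10 of 18 alternatives. F8 did not share the high value of Vwf in R-propranolol replicate 5, where it had 1.66 CPM, and the ratio of Vwf to F8 CPM was 59.7 in that tumor, 4.31 to 10.8 in the other treated and 3.60 to 8.58 in vehicle-treated tumors.

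F3, the tissue factor gene, lies on chromosome 3 from 121723537 to 121735048. It had 54.5, 63.0, 75.9, 46.4 and 21.1 CPM in R-propranolol replicates 1 to 5, against 32.1, 41.7, 48.4 and 48.6 CPM in vehicle replicates 1 to 4. The treated group held both ends of the range, with 3 tumors above every vehicle-treated tumor and replicate 5 below every one. For F3 the log2 fold change was 0.29 (SE 0.32; edgeR, adjusted p = 0.878; exact permutation p = 0.643, two-sided).
Without R-propranolol replicate 5 the mean of F3 was 59.9 ± 12.6 CPM in 4 treated tumors and 42.7 ± 7.77 CPM in 4 vehicle-treated tumors, and the log2 fold change was 0.49 (SE 0.18), a 1.40-fold difference. The unadjusted p was 0.0235 and the adjusted p 0.9995 in edgeR, and the exact permutation p was 0.0857 (two-sided). With 4 tumors in each group, every one of the 70 splits has a mirror split of equal size of difference. Replicate 4 of the treated group, at 46.4 CPM, still lay below 2 vehicle-treated tumors.
Tfpi, the inhibitor of that step, lies on chromosome 2 from 84432855 to 84476775. It had 24.2, 37.6, 26.7, 20.9 and 21.6 CPM in R-propranolol replicates 1 to 5, against 21.4, 22.1, 27.7 and 25.2 CPM in vehicle replicates 1 to 4. All but R-propranolol replicate 2 lay within a narrow band. Tfpi had a log2 fold change of 0.12 (SE 0.19; edgeR, adjusted p = 0.880), 0.18 without R-propranolol replicate 5 (SE 0.18) and -0.04 without replicate 2.
The ratio of F3 to Tfpi CPM was 2.25, 1.68, 2.85, 2.21 and 0.975 in R-propranolol replicates 1 to 5, against 1.50, 1.88, 1.75 and 1.93 in vehicle replicates 1 to 4. In 3 treated tumors the ratio was above every vehicle-treated tumor, and in replicates 2 and 5 it was not. Tfpi2, a related inhibitor, was 0.565, 11.6, 0.251, 0.369 and 7.31 CPM in treated and 0.332 to 0.992 CPM in vehicle-treated tumors (log2 fold change 2.50, SE 1.21, adjusted p = 0.876, edgeR), so its difference rested on the replicates 2 and 5 that had the lowest F3 to Tfpi ratios of the treated group.

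**Figure D2:**
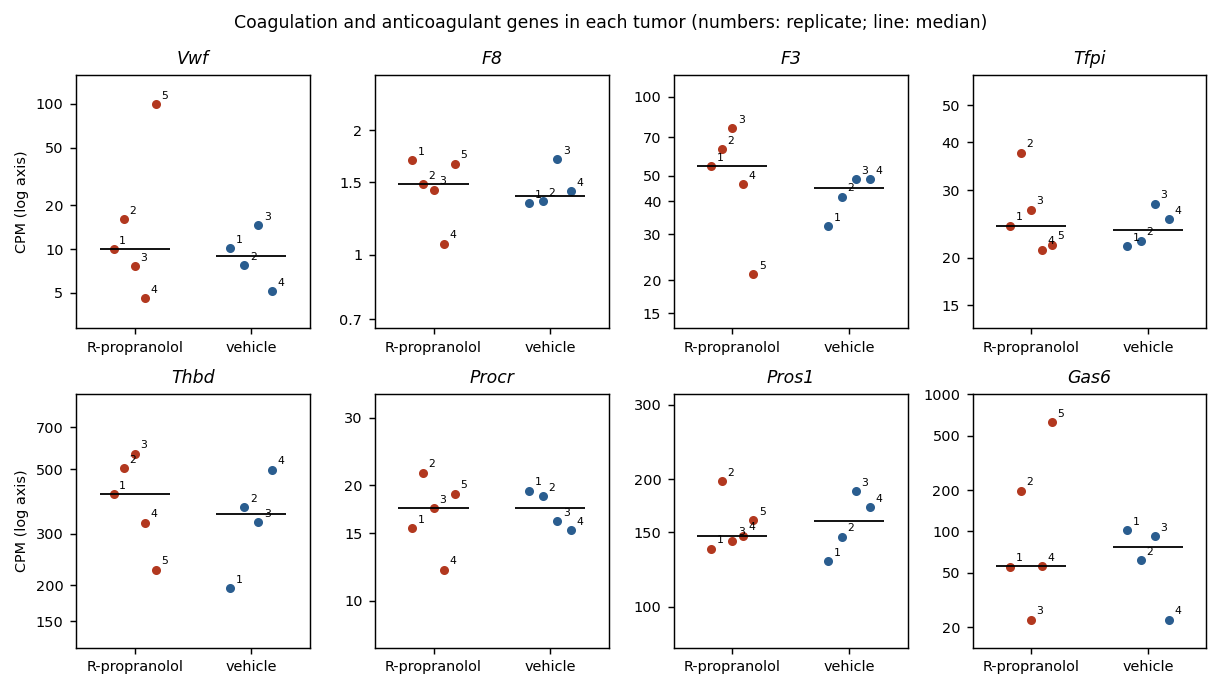
CPM of the 8 genes (vertical log axes) in each of 5 R-propranolol-treated and 4 vehicle-treated tumors, as points numbered by replicate with a line for the group median. R-propranolol replicate 5 lies at 99.3 CPM for Vwf and 627 CPM for Gas6, and at 21.1 CPM, the bottom of the panel, for F3, while the groups overlap in every panel.

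Thbd, a gene of a single exon on chromosome 2 from 148404466 to 148408188, had the most CPM of the 8 genes in all tumors but 1. It had 412, 504, 567, 328 and 226 CPM in R-propranolol replicates 1 to 5, against 195, 371, 329.5 and 499 CPM in vehicle replicates 1 to 4. Each group held 1 tumor with a low value, and R-propranolol replicates 2 and 3 exceeded every vehicle-treated tumor. Across all tumors the log2 fold change was 0.23 (SE 0.33; edgeR, adjusted p = 0.878), 0.37 without R-propranolol replicate 5 (SE 0.28) and 0.03 without vehicle replicate 1.
Procr lies on chromosome 2 from 155751117 to 155755471. It had 15.5, 21.6, 17.4, 12.1 and 19.0 CPM in R-propranolol replicates 1 to 5, against 19.4, 18.7, 16.1 and 15.3 CPM in vehicle replicates 1 to 4. Its log2 fold change was -0.02 (SE 0.18; edgeR, adjusted p = 0.972; normal-approximation interval -0.38 to 0.34), and -0.07 without R-propranolol replicate 5 (SE 0.17). The treated tumors spread to both sides of the vehicle range, and the ratio of Thbd to Procr CPM ran from 11.9 to 32.5 in treated and from 10.1 to 32.6 in vehicle-treated tumors.
Pros1, on chromosome 16 from 62854307 to 62929346, varied least over the 9 tumors, 1.55-fold between the highest and the lowest. It had 137, 198, 143, 147 and 160.3 CPM in R-propranolol replicates 1 to 5, against 128, 146, 188 and 172 CPM in vehicle replicates 1 to 4. For Pros1 the log2 fold change was -0.01 (SE 0.15; edgeR, adjusted p = 0.981), with a 95% interval of -0.31 to 0.29 by the normal approximation, narrower than one from the test itself. It was -0.02 without R-propranolol replicate 5.

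Gas6 lies on chromosome 8 from 13465374 to 13494490 and shares 34 exon bases with Tmem255b on the other strand. It had 55.3, 198, 22.6, 55.7 and 627 CPM in R-propranolol replicates 1 to 5, against 102, 61.5, 92.6 and 22.7 CPM in vehicle replicates 1 to 4. The lowest tumors of both groups were alike, and R-propranolol replicates 2 and 5 lay above every vehicle-treated tumor. Gas6 gave a log2 fold change of 1.46 with all tumors (SE 0.95; edgeR, adjusted p = 0.876; exact permutation p = 0.540, two-sided) and 0.24 (SE 0.67) without replicate 5.
Even without that tumor, Gas6 spanned 8.76-fold, the widest span of the 8 genes, while its relative Pros1 spanned 1.55-fold over the same tumors. The ratio of Pros1 to Gas6 CPM was 2.48, 0.9998, 6.34, 2.65 and 0.256 in R-propranolol replicates 1 to 5, against 1.25, 2.38, 2.02 and 7.57 in vehicle replicates 1 to 4. Of 9 fibroblast markers, none at 0, the sum was highest in the same replicates 2 and 5, at 31866 and 16183 CPM, with 5229 CPM in the lowest treated tumor and 5863 to 8529 CPM in vehicle-treated tumors. The sum of 10 macrophage markers, none at 0, was 1379, 3526, 746, 1609 and 4163 CPM in R-propranolol replicates 1 to 5, against 2167, 1648, 1979 and 809 CPM in vehicle replicates 1 to 4. Within each group the tumors had the same order by this sum as by Gas6. Muscle and adipocyte markers were high in replicate 5 and not in replicate 2. The part of these cells in the Gas6 values was not tested. The genes most like Gas6 over the 9 tumors, again the highest of all genes tested, were Pth1r (r = 0.996) and Arhgef3 (r = 0.996).
The receptors of Gas6, named here for their role after their values had been seen, were not highest in R-propranolol replicates 2 or 5. Axl had 366 to 632 CPM in treated and 561 to 617 CPM in vehicle-treated tumors (log2 fold change -0.13, SE 0.16, adjusted p = 0.878, edgeR). Tyro3 had 11.4 CPM in R-propranolol replicate 5, 52.2 to 95.0 CPM in the other treated and 78.5 to 89.6 CPM in vehicle-treated tumors. Its relative Mertk had 14.3 CPM in replicate 5, 27.1 to 34.9 CPM in the other treated and 17.8 to 33.8 CPM in vehicle-treated tumors.

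**Figure D3:**
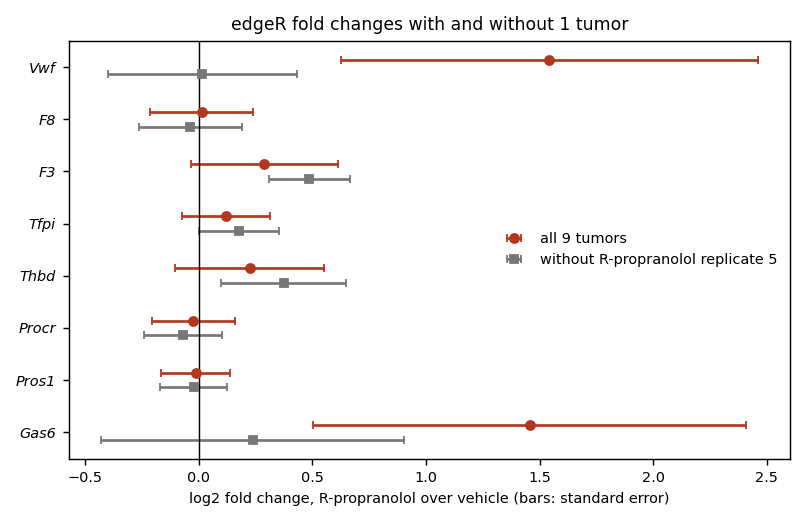
Log2 fold change of R-propranolol over vehicle (horizontal axis) for the 8 genes from edgeR, with bars for the standard error, as circles for all 9 tumors and squares without R-propranolol replicate 5. Vwf moves from 1.54 to 0.02 and Gas6 from 1.46 to 0.24 when that tumor is left out, and F3 from 0.29 to 0.49.

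To ask whether the genes varied together, 36 relations across the 9 tumors were computed, the 28 pairs of the 8 genes and each gene against the median log2 CPM of the endothelial markers. By Pearson's r 2 of them passed an adjusted p of 0.05, and by Spearman's rho 1 did. F3 and Thbd, which start and restrain coagulation, were the pair that passed in both measures (r = 0.870, exact permutation p = 0.00189, adjusted 0.0362; rho = 0.917, exact permutation p = 0.00131, adjusted 0.0472). Their r was 0.868 without R-propranolol replicates 3 and 5, the 2 tumors farthest from the median of F3. Without R-propranolol replicate 5 it was 0.886 with an adjusted exact permutation p of 0.0638. Thbd CPM was 7.06 to 10.7 times that of F3 in treated and 6.08 to 10.3 times in vehicle-treated tumors.
Vwf and Gas6 were the other pair (r = 0.890, exact permutation p = 0.00201, adjusted 0.0362; rho = 0.833, exact permutation p = 0.00827, adjusted 0.149). Their r was 0.874 without R-propranolol replicates 4 and 5, the 2 tumors farthest from the median of Vwf. Leaving out only R-propranolol replicate 5 gave an r of 0.740, with an adjusted exact permutation p of 0.216. This relation thus did not pass the threshold without that tumor. Each group holds fewer than 6 tumors, so no r is given within a group.
Tfpi and the endothelial markers had a relation past the threshold over the 8 tumors without R-propranolol replicate 5 (r = 0.965, exact permutation p = 0.00062, adjusted 0.0223; rho = 0.905, adjusted exact permutation p = 0.0821) and none past it over all 9 (r = 0.618, exact permutation p = 0.0752, adjusted 0.275; rho = 0.650, exact permutation p = 0.0666, adjusted 0.266). Leaving out R-propranolol replicates 2 and 4, the 2 farthest from the median of Tfpi, gave an r of 0.876 among those 8 tumors and of -0.004 where replicate 5 was included. For Thbd and F3 the r with the endothelial markers was 0.04 and -0.12 over 9 tumors (exact permutation p = 0.932 and 0.774, adjusted 0.932 and 0.928; rho = 0.283 and 0.333, exact permutation p = 0.463 and 0.385). Over the 8 tumors without R-propranolol replicate 5, this r was 0.411 for Thbd and 0.561 for F3 (adjusted exact permutation p = 0.528 and 0.435). The rho values were then 0.548 and 0.738 (exact permutation p = 0.171 and 0.0458, adjusted 0.385 and 0.236). As descriptions, the genes most like F3 and Thbd in the whole table were Ugcg (r = 0.991), the glucosylceramide synthase, and Pgk1 (r = 0.985), an enzyme of glycolysis. For the others they were Inhba for Tfpi (r = 0.975), Gm15787 for Procr (r = 0.960), Ddx26b for F8 (r = 0.944) and Tnfrsf1a for Pros1 (r = 0.923).

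**Figure D4:**
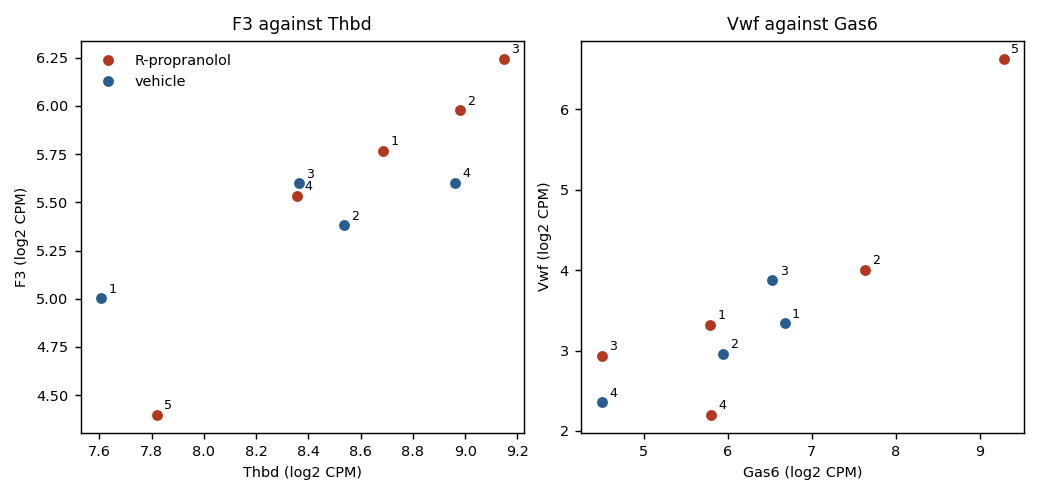
Log2 CPM of F3 against Thbd and of Vwf against Gas6, with 5 R-propranolol-treated and 4 vehicle-treated tumors as points numbered by replicate. F3 and Thbd rise together over the tumors (r = 0.870), and in the plot of Vwf against Gas6 (r = 0.890) R-propranolol replicate 5 lies alone at the upper right.

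Other genes of the pathway were taken from lists, none of whose members passed an adjusted p of 0.05 in edgeR. Of all genes tested, 54.3% had a log2 fold change above 0. An unadjusted p under 0.05 was found for 2.30% of them, or 2.01% when only higher genes are counted. Of 19 plasma factors and inhibitors that the liver mainly makes, 11 had enough counts to be tested, 10 of them with a log2 fold change above 0 and a median of 0.98 (1.20 without R-propranolol replicate 5), beside 0.03 for all genes. F2, prothrombin, had 35, 15, 38, 7 and 14 counts in R-propranolol replicates 1 to 5, against 1, 11, 0 and 2 counts in vehicle replicates 1 to 4 (log2 fold change 2.59, SE 0.90, adjusted p = 0.876, edgeR). The fibrinogen chain Fga had 2.61 (SE 1.02). Serpinc1, antithrombin, the third with an unadjusted p under 0.05, had 0.82 (SE 0.35) and shares 2942 exon bases with Zbtb37 on the other strand. F2 and Fga were at or below 3.35 CPM in every tumor, and all 7 tested hepatocyte markers also had a log2 fold change above 0 (median 2.24), with sums of 21.1 to 96.8 CPM in R-propranolol replicates 1 to 4, 289 CPM in replicate 5 and 2.47 to 37.0 CPM in vehicle-treated tumors. Cyp2e1 alone was 243 CPM of the sum in R-propranolol replicate 5, and the other 10 markers summed to 45.9 CPM there, 20.5 to 93.5 CPM in the other treated tumors, 35.6 CPM in vehicle replicate 2 and at most 2.37 CPM in the other vehicle-treated tumors. Without vehicle replicate 2 the hepatocyte median was 4.84. The part of liver RNA in these values was not tested. F5, the most abundant of the list, was the 1 with a log2 fold change below 0, with 5.05 to 34.7 CPM in treated and 4.60 to 87.1 CPM in vehicle-treated tumors (log2 fold change -1.10, SE 0.79).
The 6 genes of the vitamin K cycle and of export, which Pros1 and Gas6 or F8 need, had a median log2 fold change of 0.05 with 4 of 6 above 0. Vkorc1, the epoxide reductase that warfarin blocks, had 0.62 (SE 0.36) and the carboxylase Ggcx 0.33 (SE 0.22), while the convertase Furin, the most abundant, averaged 237 ± 47.9 CPM in treated (SD, n = 5) and 237 ± 14.8 CPM in vehicle-treated tumors (SD, n = 4). Vkorc1 shares 401 exon bases with Gm21974 on the same strand.
Among 13 receptors and genes of clearance, 11 were tested and 8 were above 0, with a median of 0.13. The protease-activated receptor F2rl1 had 9.65 CPM in R-propranolol replicate 2 and 3.66 CPM in replicate 5, at most 0.611 CPM in the other treated and at most 1.19 CPM in vehicle-treated tumors. Lrp1, which helps clear factor VIII and tissue factor pathway inhibitor, was the most abundant at 1903 ± 234 CPM in treated (SD, n = 5) and 1814 ± 223 CPM in vehicle-treated tumors (SD, n = 4).
Vwf is stored in Weibel-Palade bodies. Of 18 genes of their content and release, 15 were tested and 9 were above 0, with a median of 0.11 (0.02 without R-propranolol replicate 5). Igfbp7 had 339 and 349 CPM in R-propranolol replicates 2 and 5, 25.3 to 40.1 CPM in the other treated and 29.5 to 53.5 CPM in vehicle-treated tumors (log2 fold change 1.87, SE 0.90). The tetraspanin Cd63, the most abundant, was at -0.33 on the log2 scale (SE 0.30) and was lowest, at 468 CPM, in R-propranolol replicate 5, where Vwf was highest.
Of 9 other antithrombotic genes of endothelium and their KLF regulators, 5 were above 0 and the median was 0.29 (0.02 without R-propranolol replicate 5). Klf2, a transcription factor known to induce Thbd, had 14.4, 30.0, 20.4, 14.7 and 88.4 CPM in R-propranolol replicates 1 to 5, against 16.0, 17.8, 9.37 and 8.88 CPM in vehicle replicates 1 to 4. Its log2 fold change was 1.37 (SE 0.59, adjusted p = 0.876, edgeR) and 0.61 without replicate 5. Klf2 was highest in the tumor where Thbd was lowest of the treated group. Klf4 had 0.75 (SE 0.34), and Anxa5, which covers exposed phosphatidylserine, had -0.16 (SE 0.19).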

How the data were processed

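RNA from 9 frozen tumors was sequenced with 1 library per tumor. Per the labels, the authors used the NEBNext Ultra kit, with STAR, HTSeq, edgeR and the mm10 build named in the submitters' processing notes. Sources used here give no versions, annotation or strand setting. The deposited values are raw counts per gene symbol. Reads in no gene were 13.4% to 15.4%, 1.81% to 1.98% were ambiguous, and multiply placed ones made up 3.46% to 3.99%, or 7.86% in R-propranolol replicate 5, and these rows were left out of library sizes. In the sample titles, a number that differs between the other tumors recurs for vehicle replicates 1 and 2. The titles do not say what it stands for. Their counts differed beyond sampling noise (chi-square 20.7 per gene, with 18.5 to 40.6 for the 5 other vehicle pairs), which does not show that they are from separate mice. They were kept as separate samples and summed in an alternative. The authors describe inoculation in the right flank with 5 mice per group, while 4 vehicle-treated tumors are present here. The labels do not say whether the tumors are from separate animals, so p-values measure the spread between these tumors.

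Genes were kept by filterByExpr (minimum count 10, minimum total 15), scaled by TMM and compared with the quasi-likelihood test of edgeR 4.0.16 in R 4.3.3, adjusted by Benjamini and Hochberg over 13901 genes. Sources used here name edgeR without the design or settings of a test. Log2 CPM used a prior count of 0.25. Exact permutation tests (two-sided) used all 126 splits of 9 tumors, or 70 of 8, and all orders of the tumors for correlations. The test was checked on simulated counts, which did not model a tumor that stands apart as R-propranolol replicate 5 does. Alternatives were DESeq2 1.42.0, its size factors, library size alone, scaling to endothelial markers, limma-voom (limma 3.58.1), all genes unfiltered, genes with 1 CPM in at least 4 tumors, each tumor left out, vehicle replicates 1 and 2 summed, and a block by replicate number. Exon lengths and places are from GENCODE M21 (GRCm38), promoters from RefSeq. The genes and lists were chosen with earlier results of these data known. Named genes are the 8, and from each list the 2 lowest in p and the 1 most abundant, with the 2 most alike in pattern for each of the 8, of which some are given; Axl, Tyro3, Mertk, Serpinc1, Des, Cyp2e1 and the markers Tie1, Cdh5, Eng, Emcn, Erg, Cldn5 were named after their values had been seen. Further lists of neutrophil, macrophage, keratinocyte and erythroid markers had 3 of 5, 9 of 10, 1 of 2 and 1 of 1 tested genes above 0; Ly6g had no row.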

Additional observations from a re-analysis of the deposited data

Results flagged for a closer look

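Among 16 sets of values, those of each group for each of the 8 genes, 1 held a tumor set apart from its group by Dixon's criterion, where chance flags about 1 in 20. Vwf in R-propranolol replicate 5, at 99.3 CPM, lay above the other treated tumors (4.59 to 16.0 CPM) by 0.879 of the whole range of the group, beyond the limit of 0.71 for 5 tumors. Gas6 in the same tumor, at 627 CPM with 22.6 to 198 CPM in the other treated tumors, fell just short of that limit.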

How the results depend on the processing

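No gene passed an adjusted p of 0.05 under any of 18 alternatives, the 8 genes included, and F3, Thbd and Gas6 kept a log2 fold change above 0 in all 18. Of 144 values, 23 changed sign, all of genes near 0 except Vwf. F8 turned to -0.13 with library size alone, -0.028 with scaling to endothelial markers, -0.0031 with limma-voom, -0.0058 without a filter, -0.011 with vehicle replicates 1 and 2 summed and -0.044 with the replicate block. Tfpi turned to -0.0076 with library size alone and Procr to 0.036 with those replicates summed. Library size alone moved the median of all genes to -0.10. With 1 tumor left out at a time the ranges were 0.02 to 1.89 for Vwf, -0.043 to 0.12 for F8, 0.12 to 0.49 for F3, -0.042 to 0.20 for Tfpi, 0.03 to 0.45 for Thbd, -0.12 to 0.095 for Procr, -0.11 to 0.076 for Pros1 and 0.24 to 1.81 for Gas6. The value of Vwf and that of Gas6 rested on R-propranolol replicate 5, and limma-voom gave 0.45 for Vwf and 0.69 for Gas6. Of the 36 relations, 1 instead of 2 passed by Pearson's r without that tumor. It was Tfpi with the endothelial markers, which was not among the 2. By Spearman's rho, 0 instead of 1 passed. Of 287 list medians under the alternatives, 26 moved by more than 1 SD between tumors, of which 18 are the erythroid markers, whose median lies at the floor in every tumor with an SD of 0, so that any change counts. The other 8 were of muscle (3), adipocyte (2), hepatocyte, keratinocyte and processing genes (1 each). DESeq2 gave no median for the muscle markers.

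The groups share 4 replicate numbers, which carry no stated link. Same-numbered tumors deviated together at r between -0.636 and 0.534, and 1 of the 4 R-propranolol tumors correlated best with its own number, so the numbers were not taken to pair the tumors. A fit with the replicate block called 0 genes, with 283 instead of 320 at an unadjusted p under 0.05, and gave -0.019 for Vwf, 0.036 for Gas6 and 0.49 for F3. R-propranolol replicate 5 has no partner and drops out of it.

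F8 had at most 48 counts in a tumor, which limits the precision of its values.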
